A study of Caenorhabditis elegans with 2 samples.

Results

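The regions described are the strong autosomal promoter regions of DAF-12 ChIP-seq in L3 larvae of Caenorhabditis elegans. They are those of the 2000 regions with the highest pooled signal that lie on chromosomes I to V and have their summit, the position of highest signal, within 500 bp of an annotated start of a protein-coding transcript. There were 502 such regions among the 2000, and the pooled list held 30000 regions in all. The values that chose them were the pooled signal and the distance to a start, so both are given as descriptions only. Chromatin immunoprecipitation and sequencing (ChIP-seq) had been performed on whole larvae, sexes pooled, of the strain OP222, genotype unc-119(ed3) III; wgIs222, which carries eGFP-tagged DAF-12 on an integrated transgene. The study had 1 group of 2 biological replicates, both of that strain and stage, and no second condition. Whole animals were used, so the signal mixes all tissues, and per the deposited notes the region lists hold background as well as peaks. They give a signal value for each region and no read counts, so depth is unknown and the replicates are the only measure of error. A region near a start was called a promoter region by distance alone, and 269 of the 502 summits (53.6%) lay between genes, 132 in introns, 56 in coding exons, 29 in 5′ UTRs and 16 in 3′ UTRs.

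DAF-12 is a nuclear hormone receptor that, with or without its steroid ligand dafachronic acid, switches larvae between reproductive growth and dauer arrest and times the larval stages; without ligand it acts with the corepressor DIN-1. Nuclear receptors of this kind recognise short hexamers in DNA, and for DAF-12 hexamers that begin with the letters AGT have been described. Worm promoters are compact, neighbouring genes are often transcribed away from each other from 1 shared gap (a divergent pair), and many genes lie head to tail in operons that are transcribed from 1 upstream promoter.

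The sequences under the strongest summits are shown because the short words described further on are read from them. They are the 12 strongest members, in ce11 (WBcel235), each as 101 bp centred on the summit except 41 bp at idhg-1, where a longer window would enter a UTR, written on the strand of the nearest gene. On the plus strand are rpl-3 (chrIII:3867518-3867618), rpl-35 (chrIII:7854669-7854769), Y17G9B.5 (chrIV:4750054-4750154), idhg-1 (chrIII:4568754-4568794), tasp-1 (chrIII:10759200-10759300), cox-5A (chrIII:12905184-12905284) and hsp-1 (chrIV:17278511-17278611). On the minus strand are cdc-48.1 (chrII:10563507-10563607), rpl-15 (chrIV:654878-654978), din-1 (chrII:11620117-11620217), ska-3 (chrIII:5679095-5679195) and drr-2 (chrIII:13643678-13643778). Capitals mark, on either strand, the GA-repeat word GAGAG, the receptor hexamer AGTGTG, the hexamer AGTGCA, the hexamer AGTGCG, the hexamer AGTACA, and 2 words that were added only after these 12 sequences had been read, the heptamer GCGTGTT and the hexamer AGTGTA. Adjacent or overlapping copies run together in capitals.
rpl-3: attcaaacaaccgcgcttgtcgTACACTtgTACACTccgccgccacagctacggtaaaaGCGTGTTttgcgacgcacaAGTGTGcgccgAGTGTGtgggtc
cdc-48.1: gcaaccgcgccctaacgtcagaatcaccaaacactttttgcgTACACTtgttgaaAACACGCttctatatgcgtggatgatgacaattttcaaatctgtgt
rpl-35: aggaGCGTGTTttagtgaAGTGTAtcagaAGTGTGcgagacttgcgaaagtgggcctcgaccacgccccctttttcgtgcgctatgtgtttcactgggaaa
Y17G9B.5: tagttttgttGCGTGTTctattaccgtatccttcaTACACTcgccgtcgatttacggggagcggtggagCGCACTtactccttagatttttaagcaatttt
idhg-1: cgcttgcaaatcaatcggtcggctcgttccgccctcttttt
tasp-1: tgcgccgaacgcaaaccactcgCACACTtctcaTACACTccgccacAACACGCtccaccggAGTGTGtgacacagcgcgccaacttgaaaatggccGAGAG
rpl-15: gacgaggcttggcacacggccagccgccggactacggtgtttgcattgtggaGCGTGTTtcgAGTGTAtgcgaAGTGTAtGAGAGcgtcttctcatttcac
cox-5A: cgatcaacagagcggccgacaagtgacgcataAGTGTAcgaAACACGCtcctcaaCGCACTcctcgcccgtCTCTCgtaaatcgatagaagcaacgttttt
din-1: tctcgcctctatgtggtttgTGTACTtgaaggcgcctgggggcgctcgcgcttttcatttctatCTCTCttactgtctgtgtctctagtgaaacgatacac
ska-3: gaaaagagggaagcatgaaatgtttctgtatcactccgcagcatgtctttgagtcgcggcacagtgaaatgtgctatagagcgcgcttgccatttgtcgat
hsp-1: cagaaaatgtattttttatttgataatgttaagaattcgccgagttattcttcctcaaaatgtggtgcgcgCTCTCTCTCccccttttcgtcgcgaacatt
drr-2: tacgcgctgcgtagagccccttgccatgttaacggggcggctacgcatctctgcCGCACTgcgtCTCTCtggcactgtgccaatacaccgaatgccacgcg
The heptamer GCGTGTT or its reverse complement stands in 7 of the 12 sequences, those at rpl-3, cdc-48.1, rpl-35, Y17G9B.5, tasp-1, rpl-15 and cox-5A, and the same 7 hold AGTGTA. Since the 2 words were picked from these sequences, the 12 give no support to them. The windows at idhg-1 and ska-3 hold none of the 7 marked words.

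The strongest member, of pooled rank 4, had its summit 286 bp upstream of rpl-3, a protein of the large ribosomal subunit, on chromosome III at 3867568. Its pooled signal was 128.7, with 69.3 in replicate 1 and 61.2 in replicate 2. The next lay 150 bp upstream of cdc-48.1, a hexameric ATPase that extracts ubiquitinated proteins, with a pooled signal of 123.6 and replicate signals of 65.3 and 56.1. In both cases the 2 replicates were close to each other and far above the members' median pooled signal of 21.9. At rpl-35, another protein of the large subunit, the summit was 415 bp upstream, with signals of 50.7 and 45.1 in replicates 1 and 2. The region between Y17G9B.5, which encodes a relative of the mitochondrial and Toll-pathway protein ECSIT, and rpl-18A of the large subunit had signals of 46.4 and 38.9.

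The summit nearest to idhg-1, a subunit of mitochondrial isocitrate dehydrogenase, was 23 bp upstream of its start and had signals of 42.1 and 43.5. Its divergent partner is mlcd-1. At tasp-1, a threonine protease homologue, the signals were 39.7 and 37.8, and at rpl-15 they were 31.6 and 38.9. The summit at cox-5A, a cytochrome c oxidase subunit, was 257 bp upstream and had signals of 30.3 and 35.2. The gene of the DAF-12 corepressor, din-1, had a summit 89 bp upstream of an annotated start and within an annotated intron, with signals of 30.6 and 34.0. Between ska-3, a kinetochore protein, and rps-12 of the small ribosomal subunit the signals were 34.0 and 28.0. At hsp-1, a constitutive heat shock protein, they were 28.2 and 35.3, and at drr-2, an RNA-binding protein that shares its gap with the histone methyltransferase gene set-16, they were 29.1 and 27.1. In these 12 members neither replicate was higher throughout: replicate 1 was the higher in 7 and replicate 2 in 5.

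Further members of pooled ranks 48 to 74 included sec-61.G, a translocon subunit (27.5 in replicate 1 and 24.1 in replicate 2), tos-1 (23.5 and 26.2), and the pair C47E8.4 and hsp-90, whose shared region had signals of 28.5 and 22.5. The region between Y22D7AL.10, the mitochondrial co-chaperone of the GroES type, and its partner hsp-60 had signals of 25.3 and 21.9, the summit being 172 bp from the start of Y22D7AL.10. At hat-1, a histone acetyltransferase, replicate 1 gave 27.7 and replicate 2 gave 18.1. At cept-2, an enzyme of phospholipid synthesis, the order was the other way, with 21.9 and 27.3. The homeobox gene ceh-38 differed from most in that its summit lay 39 bp downstream of the start (25.1 and 23.9). At fdx-2, a ferredoxin, the signals were 17.0 and 22.7, at the nucleoporin gene npp-22 they were 17.4 and 26.2, and at eif-3.C, an initiation factor subunit, 20.2 and 21.5. The strongest chemoreceptor region, between sri-5 and rsr-1, had signals of 20.5 and 24.3.

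At the 2 limits of the rule the values were continuous. The last members by signal were nhr-66, W06A11.1 and C32B5.7, of pooled ranks 1997, 1999 and 2000, each with 19.04, and the first near-start autosomal regions beyond the limit, at K04C2.7, F32F2.4 and K08C9.9, had 19.03, 19.01 and 19.01. The farthest members from a start were nhr-153 at 495 bp, nduc-2 at 496 bp and ceh-22 at 497 bp, and the nearest regions outside were T28F4.4 at 504 bp, arid-1 at 506 bp and ZK1055.4 at 511 bp. Members numbered 94 on chromosome I, 92 on II, 86 on III, 90 on IV and 140 on V, with median pooled signals between 21.5 on V and 22.8 on III.

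Summits stood mostly on the upstream side of the start, which the rule did not use. Of the 502 members, 354 (70.5%, exact 95% interval 66.3 to 74.5) had the summit upstream of the nearest start, and the median position relative to the start was -113.5 bp, negative being upstream. Among the 5837 autosomal regions beyond pooled rank 2000 that also lay within 500 bp of a start, 3050 (52.3%, 51 to 53.5) were upstream, with a median position of -18 bp. The intervals on shares are Clopper-Pearson intervals over regions; they cover counting error only, and no p-value is given because regions are not replicates. The stretch from 300 to 51 bp upstream held 217 members, or 43.2%. At divergent pairs a summit that falls between the starts is upstream of both genes. Without such pairs the upstream share was 66.3% (61.5 to 70.8) of 418 members against 49.9% (48.5 to 51.2) of 5409 lower-ranked regions.

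**Figure D1:**
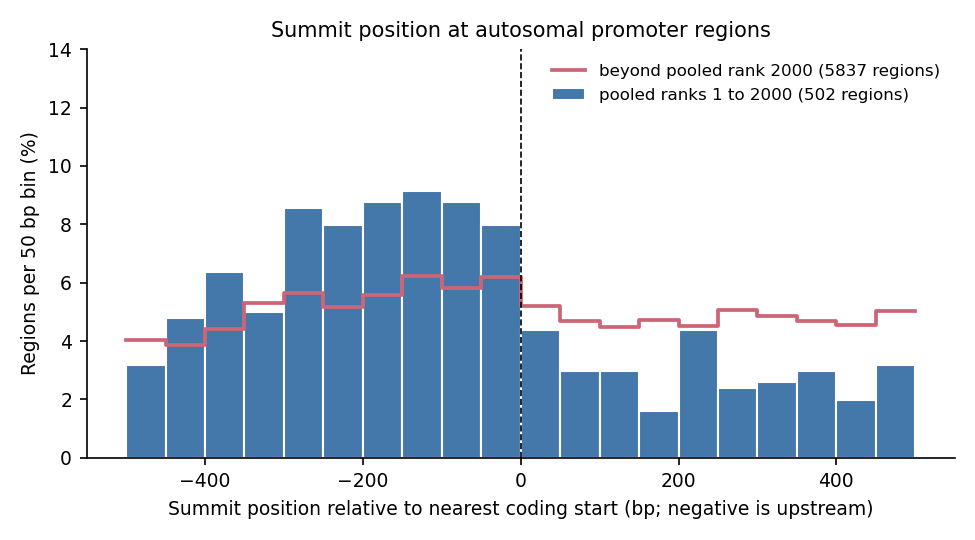
Position of the summit relative to the nearest protein-coding start in 50 bp bins (x axis, bp, negative is upstream; y axis, percent of regions per bin), for the 502 members (bars) and the 5837 near-start autosomal regions of lower rank (line). The members pile up on the upstream side, with 9.16% in the bin from 150 to 100 bp upstream, while the lower-ranked regions are nearly level.

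The side changed stepwise with rank. Of the 48 members of ranks 1 to 150, 46 were upstream (95.8%, 85.7 to 99.5), with a median position of -199.5 bp. The share was 80.2% (71.1 to 87.5) at ranks 151 to 500, 68.3% (59.3 to 76.4) at ranks 501 to 1000 and 62.2% (55.6 to 68.5) at ranks 1001 to 2000. Below the limit it went on falling, to 56.2% (52.3 to 60.1), 53.1% and 51.4% (49.9 to 53.0) in the classes that end at ranks 5000, 10000 and 30000. The exceptions among the strongest were ceh-38, 39 bp downstream, and egl-30, a G protein alpha subunit, 337 bp downstream and in a 5′ UTR. Summits in coding exons went the opposite way: none of 48 at ranks 1 to 150, which allows up to 7.40%, then 5.94%, 11.4% and 15.7% in the next 3 rank classes, and 21.7% (20.6 to 22.8) of the lower-ranked regions. Base composition moved with rank too: the median GC content of the 101 bp around the summit was 47.5% at ranks 1 to 150, 40.6% at 151 to 500, 36.6% at 501 to 1000 and 33.7% at 1001 to 2000, and 33.7% in the lower-ranked regions. Its part in the trends with rank was not tested. On chromosome X, the 104 near-start regions of the same 2000 had 77.9% upstream (68.7 to 85.4), an interval that overlaps that of the autosomal members.

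Divergent pairs were frequent at the strongest members. A pair was counted where 2 coding genes on opposite strands, transcribed away from each other, start within 1000 bp of each other and the summit lies between them or within 500 bp of both starts. This held for 84 members (16.7%, 13.6 to 20.3) against 428 (7.33%, 6.68 to 8.03) of the lower-ranked near-start regions. By rank the share was 45.8% (22 of 48, 31.4 to 60.8) at ranks 1 to 150, 19.8% (12.5 to 28.9) at 151 to 500, 19.5% (12.9 to 27.6) at 501 to 1000 and 7.83% (4.70 to 12.1) at 1001 to 2000, the last overlapping the lower ranks. Counted over genes, 173 of the 560 genes with a start within 500 bp of a member (30.9%, 27.1 to 34.9) had a divergent partner within 1000 bp, as had 20.6% of the 17242 autosomal coding genes. This is not a like comparison, because a summit in a divergent gap can bring in both genes of the pair. Of all 502 members 68 had 2 or more genes with a start within 500 bp, but only 5 of the 418 without a pair. The share of genes at lower-ranked regions with a divergent partner is not given. The near-start regions of chromosome X held 3 pairs in 104 (2.88%, 0.599 to 8.20). No share over all chromosome X genes or over lower-ranked X regions is given, so this count cannot be called low for that chromosome.

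The 10 strongest pairs were rpl-18A with Y17G9B.5, mlcd-1 with idhg-1, K01G5.10 with tasp-1, rpl-15 with K11H12.8, ska-3 with rps-12, drr-2 with set-16, C47E8.4 with hsp-90, hat-1 with M03C11.3, malt-1 with ceh-38, and Y22D7AL.10 with hsp-60. Their starts were between 226 bp (malt-1 and ceh-38) and 968 bp (hat-1 and M03C11.3) apart. A ribosomal or chaperone gene was thus often the second gene of the pair and not the nearest one, as with rpl-18A, rps-12, hsp-90 and hsp-60. Other pairs of high rank joined tim-1, which acts in sister chromatid cohesion, with Y75B8A.23, the cohesin release factor gene wapl-1 with the histone variant gene htz-1, ifet-1 with rps-3A, rpl-12 with lin-54, mig-5, a Dishevelled protein of Wnt signalling, with the chaperonin subunit gene cct-1, and pabp-2 with vps-72. At ska-3 and rps-12 the starts were 293 bp apart and the summit lay 140 bp from the one and 153 bp from the other, nearly midway.

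**Figure D2:**
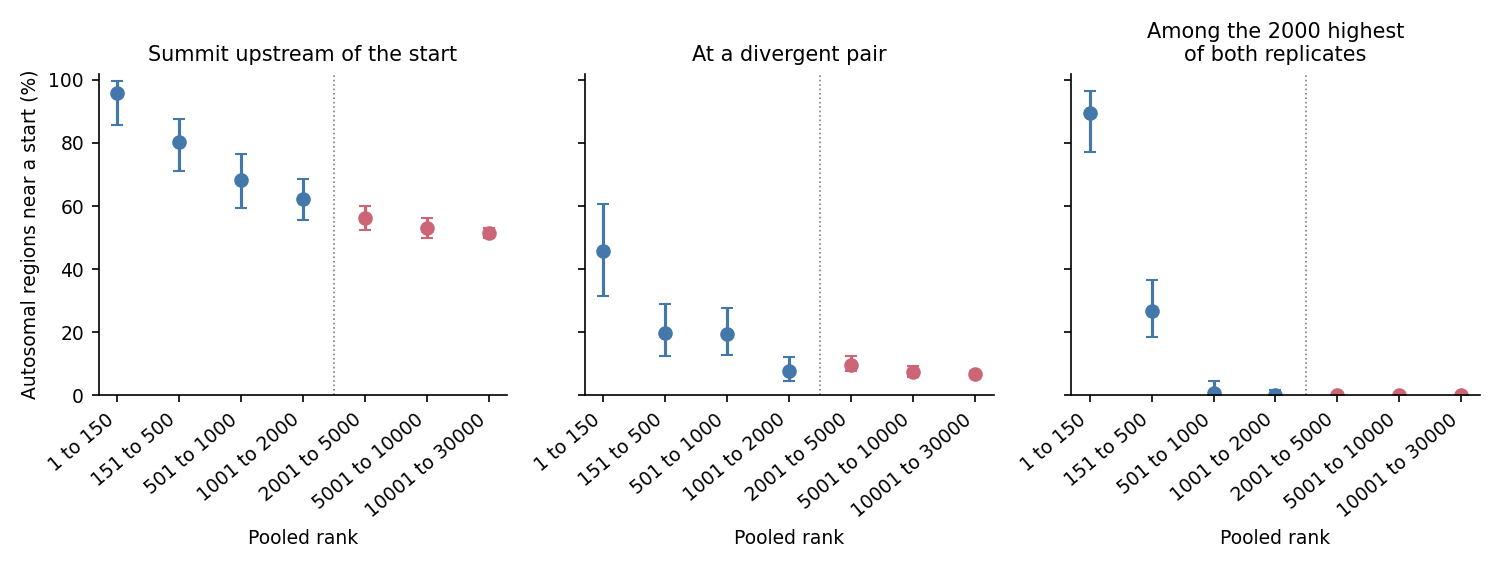
Share of autosomal near-start regions (y axis, percent) by pooled rank class (x axis) with the summit upstream of the start (left), at a divergent pair (middle) and among the 2000 highest regions of both replicates (right); points are shares, bars exact 95% intervals, blue the members and red the lower ranks, with the limit of 2000 dotted. All 3 shares are highest at ranks 1 to 150, where they are 95.8%, 45.8% and 89.6%. The share in both replicates is tied to rank, because the pooled signal is made from both replicates.

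Gene order was examined for head-to-tail runs, since no operon annotation was used here. A run is a series of coding genes on 1 strand, each beginning within 500 bp after the end of the one before; this is geometry only and does not show joint transcription. The nearest gene was the first of a run at 86 members (17.1%, 13.9 to 20.7), an inner or last gene at 101 (20.1%, 16.7 to 23.9) and in no run at 315 (62.7%, 58.4 to 67.0). Over all autosomal coding genes the shares were 14.1%, 19.3% and 66.6%, and in the lower-ranked near-start regions 12.6%, 21.1% and 66.3%. The members' 3 intervals include the values over all genes, which are shares of genes and not of regions. At first genes the members' interval lay just above that of the lower-ranked regions (11.8 to 13.5). For inner genes and no run the intervals overlapped. Without divergent pairs the first-gene share was 14.1% (10.9 to 17.8) of members and 11.7% (10.9 to 12.6) of lower-ranked regions, with overlapping intervals. At ranks 1 to 150, 14 of 48 were at first genes (29.2%, 17.0 to 44.1), an interval above both 14.1% and 12.6%.

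The 10 strongest at first genes were tasp-1 (followed by dpy-28), rpl-15 (K11H12.1), ska-3 (F54E7.9), drr-2 (T12D8.10 and acbp-5), sec-61.G (F32D8.13), hat-1 (chl-1), cept-2 (the V-ATPase gene vha-13), fdx-2 (Y73F8A.26), C33A12.3 (C33A12.4) and rpl-12 (tag-115). Their summits lay between 22 bp (rpl-12) and 396 bp (cept-2) upstream. The upstream side was taken by 80.2% (70.2 to 88.0) of members at first genes, by 66.3% (56.2 to 75.4) of those at inner genes and by 69.2% (63.8 to 74.3) of those in no run, with overlapping intervals, where the lower-ranked regions had 52.8%, 52.7% and 52.0%. Divergent pairs made up 31.4% of the members at first genes, 18.1% of those in no run and none of the 101 at inner genes. The lower-ranked regions had 13.9%, 8.34% and 0.244%. The lack of pairs at inner genes follows largely from the definition of a run, since a gene on the same strand ends within 500 bp before an inner gene. Without pairs the members' upstream shares at first genes, in no run and at inner genes were 74.6% (61.6 to 85.0), 64.3% (58.2 to 70.2) and 66.3%. Strong regions inside runs existed as well: npp-22 behind spe-42, eif-3.C behind sys-1, eelo-2 behind mfsd-8.1, dnj-9 behind nssp-16 and ddp-1 behind hlh-33, each with the summit 161 to 251 bp upstream of the inner gene's own start.

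Genes of the cytosolic ribosome had the highest share of the lists examined at the 500 bp limit, though not at 250 bp. A gene was counted where it had a start within 500 bp of any member summit, which held for 560 of 17242 autosomal coding genes (3.25%). Of 76 autosomal genes for cytosolic ribosomal proteins 18 were so placed (23.7%). Of the 76, 12 were at members of ranks 1 to 500 (15.8%), against 1.05% of all autosomal coding genes at those ranks. With starts within 250 bp it was 7 of 76 (9.21%), under the 4 of 36 (11.1%) of both the translation factors and the respiratory chain. The share over all genes is not given for 250 bp, and the 3.25% is no base for these shares. The large-subunit genes were rpl-3, rpl-35, rpl-18A, rpl-15, rpl-12, rpl-38, rpl-7A, rpl-31, rpl-35A, rpl-34 and rpl-39, and the small-subunit genes rps-12, rps-3A, rps-26, rps-20, rps-28, rps-15 and rps-23. Their summits were upstream of the gene's start in all but rpl-38, where the summit was 309 bp downstream. At rps-3A, which shares its region with the translation repressor gene ifet-1, the signals were 15.0 and 26.2, and at rpl-12 they were 16.2 and 22.4. The mitochondrial ribosome stood apart from this, with 3 of 71 genes (mrpl-55, mrps-11 and mrps-26, 4.23%), all at members of ranks 1262 to 1873.

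Several other lists were also above 3.25%. Among 36 translation factor genes 5 were at members (13.9%): eif-3.C, the elongation factor genes eef-1B.1, eef-1A.1 and eef-2, and iff-2. The respiratory chain and ATP synthase had 5 of 36 (13.9%), namely cox-5A, atp-1, cox-5B, cox-6B and cyc-2.1. Chaperone genes had 7 of 56 (12.5%), the strongest being hsp-1, hsp-90, cct-1 and dnj-9. Of 71 genes of vesicle transport 7 were at members (9.86%), led by sec-61.G, vps-72, vps-4 and sec-24.1; vps-72 is a homologue of a chromatin remodelling subunit in spite of its name. The list of cell cycle and replication genes had 4 of 47 (8.51%), cdc-48.1, the sliding clamp gene pcn-1, cdc-25.2 and orc-3. Proteasome genes had 2 of 33, pbs-3 and rpn-6.2, V-ATPase genes 1 of 17, vha-8, genes of ubiquitin conjugation 2 of 43, ubl-5 and ubc-6, and homeobox genes 3 of 60, ceh-38, ceh-74 and ceh-22. These counts are small, and the lists were not tested.

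The remaining lists, large families of restricted expression among them, were near or under the 3.25% of all genes. Those near it cannot be told apart from it with counts this small. The chemoreceptors, the largest list, had 21 of 1091 (1.92%). Of the 1091, 3 were at ranks 1 to 500 (0.275%, against 1.05% of all autosomal coding genes): sri-5, srh-16 and srx-128. Collagens had 4 of 161 (2.48%): col-159 and col-160 at 1 region, col-103, and dpy-11, which encodes a thioredoxin-related protein and not a collagen. Nuclear hormone receptors, the family of DAF-12 itself, had 7 of 246 (2.85%), the strongest of which were nhr-49, a regulator of fat metabolism with 2 regions, nhr-156 and nhr-58. The F-box and MATH-BTB genes had 6 of 378 (1.59%), led by fbxb-85, and the detoxification enzymes 3 of 171 (1.75%), cyp-29A4, cyp-13A4 and cyp-33C8. The neuropeptide genes had 1 of 110 (0.909%), nlp-70, and the C-type lectins 2 of 236 (0.847%), clec-56 and clec-177. Histone genes had 2 of 69 (2.90%), htz-1 and his-37, and the nuclear pore and importin genes 1 of 41 (2.44%), npp-22. The splicing genes had 1 of 41 (2.44%), rnp-6, and the aminoacyl-tRNA synthetases 1 of 32 (3.12%), nars-2. The mediator and RNA polymerase list had 0 of 41, beside the 3.25% of all genes. Where a list's genes lie in dense or duplicated stretches, neighbouring members are not independent of each other.

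**Figure D3:**
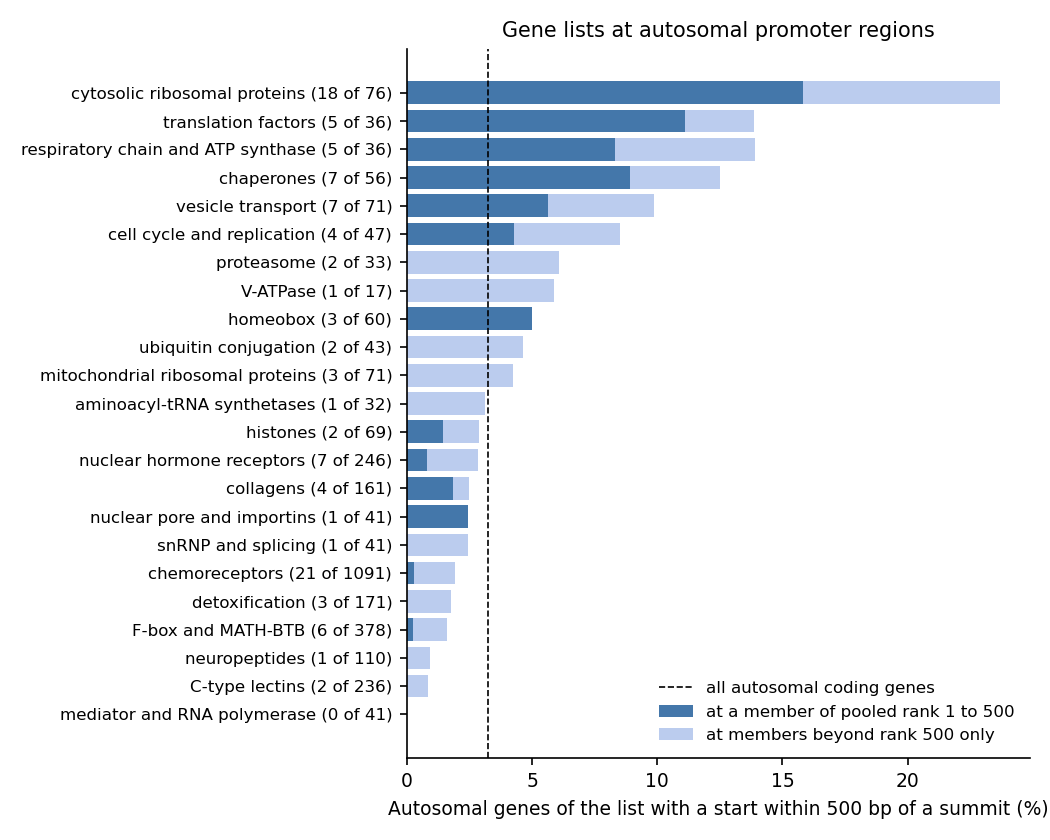
Share of the autosomal genes of each list that have a start within 500 bp of a member summit (x axis, percent; gene counts beside the names), split into members of pooled ranks 1 to 500 (dark) and genes only at members of ranks 501 to 2000 (light). The dashed line is the share over all 17242 autosomal coding genes for ranks 1 to 2000, 3.25%. For ranks 1 to 500 alone that share is 1.05%. Over ranks 1 to 2000 cytosolic ribosomal protein genes reach 23.7% and chemoreceptors 1.92%.

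Members differed widely in how far the 2 replicates bore them out. The 48 members of pooled ranks 1 to 150 were the ones on the authors' list of peaks that passed their irreproducible discovery rate (IDR) threshold, beside 7.50% of the 2000 regions, and the peaks on that list were those of highest pooled signal. A replicate was counted as holding a member where 1 of its own 2000 highest regions had a summit within 100 bp. Both replicates held 71 members (14.1%, 11.2 to 17.5), beside 10.6% of the 2000 pooled regions and 0.707% of all 30000. Replicate 1 alone held 119, replicate 2 alone 149 and neither 163. Because the pooled signal is made from both replicates, these counts describe the selection and are no independent support. By rank, 43 of 48 were in both at ranks 1 to 150 (89.6%, 77.3 to 96.5) and 27 of 101 at 151 to 500 (26.7%, 18.4 to 36.5). At 501 to 1000 it was 1 of 123, and at 1001 to 2000 it was 0 of 230. This fall is largely built in, since a region high in both replicates also has a high pooled signal. Members in both had pooled signals of at least 23.4, and those of ranks 1001 to 2000 had at most 21.6. The low counts therefore do not measure agreement of the replicates. At ranks 151 to 500 the strong regions of chromosome X had 16.9% (9.75 to 26.3), the intronic autosomal regions 25.5% (14.3 to 39.6) and the other autosomal regions 18.3% (11.6 to 26.9), all overlapping the members' interval.

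The 5 members of ranks 1 to 150 that were not among the 2000 highest of both were all absent from those of replicate 1. They were cbp-1, a histone acetyltransferase and coactivator (10.5 in replicate 1 and 27.2 in replicate 2), dnj-9 (9.90 and 23.6), wip-1 (9.45 and 26.8), and 2 with no region in the list of replicate 1 within 100 bp, wapl-1 (28.2 in replicate 2) and Y87G2A.1 (19.6). At the next ranks pfd-6, a prefoldin subunit, had 11.0 and 21.4, and eef-1B.1 had 17.0 in replicate 1 with no region in replicate 2. Below rank 150 the strongest members that both replicates did hold were tmem-107 with rps-26 (16.1 and 19.4), pcn-1 (12.6 and 20.2), F26F2.7 (15.9 and 17.7) and eat-16 (16.3 and 19.7). These 4 were chosen after their values were seen.

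Where both full lists had a region within 100 bp, which was so for 320 members (63.7%, 59.4 to 68.0), the replicate signals could be divided by each other. Replicate 1 over replicate 2, on the log2 scale, had a median of -0.16 and an SD of 0.70 over these members, and 64 of them differed by more than 2-fold. The SD was 0.53 at ranks 1 to 150 (n = 46 members), 0.79 at 151 to 500 (81), 0.77 at 501 to 1000 (71) and 0.65 at 1001 to 2000 (122). The largest ratios in favour of replicate 2 were at sec-24.1 (4.81 and 20.8), rps-28 (5.0 and 21.7), col-160 (6.13 and 21.0), T07E3.4 (4.97 and 15.9) and dsc-4 (5.42 and 17.3). In favour of replicate 1 they were at Y59A8B.24 (23.1 and 6.85), wac-1.1 (19.5 and 7.39), Y54F10BM.12 (15.9 and 6.58), szy-20 (17.9 and 7.65) and F25E5.5 (15.7 and 6.68). None of these 10 was of rank 1 to 150. Across members, Spearman's rho of the replicate signals was 0.51 at ranks 1 to 150 and -0.29 at ranks 151 to 2000; members share the libraries, and a set chosen on a value close to the sum of both signals leaves out regions low in both. The pooled signal was 1.04 times that sum at the median member (0.80 to 1.74).

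**Figure D4:**
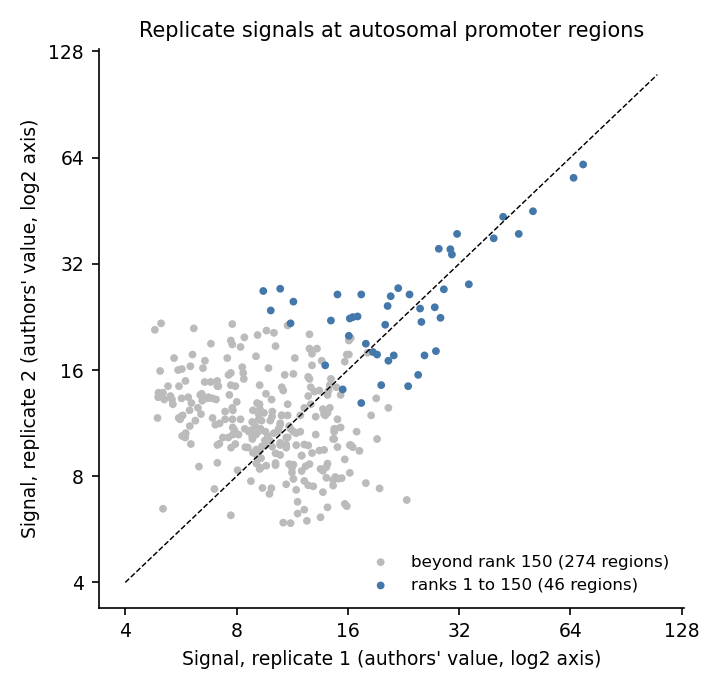
Signal of replicate 2 (y axis) against replicate 1 (x axis), both log2 axes in the authors' units, for the 320 members with a region in both full lists; blue points are members of pooled ranks 1 to 150 and grey points those of ranks 151 to 2000, and the dashed line marks equal signal. The blue points rise along the line and the grey ones fall across it, with rho of 0.51 and -0.29.

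Members held in both replicates were also described by features that the replicate counts did not use. Of these 71, 95.8% (88.1 to 99.1) were upstream of the start and 36.6% (25.5 to 48.9) were at a divergent pair. When each chromosome was cut into 3 equal parts, 26.8% of them (16.9 to 38.6) were in the middle part, against 45.0% (40.2 to 49.8) of the other members and 38.1% of all autosomal coding genes. Their median pooled signal was 38.3 against 21.4, and their median GC content 47.5% against 35.6%, so position, signal and base composition moved together and their separate parts were not tested.

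GAGAG around the summit was most frequent at the top ranks. Each word was searched on both strands in the 101 bp centred on the summit, and the same in 25184 windows of that length centred 114 bp upstream of every autosomal coding start. GAGAG was in 23.9% of members (20.2 to 27.9), in 47.9% (33.3 to 62.8) at ranks 1 to 150 and in 25.7% (17.6 to 35.4) at 151 to 500. At ranks 501 to 1000 and 1001 to 2000 it was in 17.9% (11.6 to 25.8) and 21.3% (16.2 to 27.2), intervals that include the 17.1% of all start windows. The lower-ranked near-start regions held it in 13.5%. It was frequent in strong regions away from starts as well: among ranks 1 to 500, 32.9% of members (25.4 to 41.0) held it, as did 34.1% of chromosome X regions and 41.6% (35.0 to 48.4) of autosomal regions beyond 500 bp from a start. Members with an upstream summit held it in 29.1% (24.4 to 34.1) and those with a downstream summit in 11.5% (6.84 to 17.8).

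The receptor hexamers share their first letters, can share only end letters with GAGAG, and AGTGCG can overlap the added GCGTGTT by the letters GCG. AGTGCG was in 5.98% of members, in 18.8% (8.95 to 32.6) at ranks 1 to 150 and in 2.14% of all start windows. Among ranks 1 to 500 it was in 12.1% of members (7.32 to 18.4), in 4.55% of chromosome X regions (1.69 to 9.63) and in 3.20% of other autosomal regions (1.29 to 6.47), of which the last interval does not overlap the members'. AGTGCA had the opposite order with overlapping intervals, in 5.37% of members (2.35 to 10.3), 12.1% of chromosome X regions (7.09 to 18.9) and 11.9% of other autosomal regions (7.90 to 16.9). AGTGTG was in 5.78% of members and in 4.24% of start windows, and AGTACA in 3.98% and 3.76%. The remaining words were rare or near the start windows' share. The GATA-type word TTATCA stood in 9.76% of members and 12% of windows, and the splice-acceptor word TTTTCAG in 6.18% (4.23 to 8.65) and 8.48%. In the lower-ranked near-start regions TTTTCAG was more frequent than in members, at 11.8% (10.9 to 12.6). The E-box CACGTG stood in 2.39% of members and 2.28% of windows, and the GC-box GGGCGG in 2.79% and 3.00%. The word TGACGTCA was in 0.199% of members, as was TTCCCGCC, and CCGGAAG was in 0.398%. A match is only the presence of the letters and not a binding site.

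The 2 added words, outside the 12 sequences they were picked from, can be counted in the other 137 members of ranks 1 to 500. GCGTGTT was in 8 of these (5.84%, 2.55 to 11.2) against 0.893% (0.781 to 1.02) of start windows and 0.702% of lower-ranked near-start regions, and AGTGTA in 8 (5.84%, 2.55 to 11.2) against 3.68%. At ranks 501 to 2000 the shares were 1.13% (0.310 to 2.88) and 3.12%. Among ranks 1 to 500 GCGTGTT was in 1.52% of chromosome X regions (0.184 to 5.37) and 2.28% of other autosomal regions (0.745 to 5.25). Both intervals overlap that of the 137 members. Over ranks 1 to 500 without the 12, the interval of GCGTGTT lay above those of the start windows and of the lower-ranked regions (0.505 to 0.952). That of AGTGTA included the start windows' 3.68%. At ranks 1 to 150, without the 12, GCGTGTT was in 1 of 36 (2.78%, 0.0703 to 14.5) and AGTGTA in 3 (8.33%, 1.75 to 22.5). These 36 lack the 12 printed members, so they cannot show whether either word rises within the top 150 ranks. Of the 59 members held in both replicates other than the 12, 5 held GCGTGTT (8.47%, 2.81 to 18.7), with an interval that overlaps the 1.62% (0.655 to 3.32) of the members not held in both. The higher GC content of the strong members moved with the words that are rich in G and C, and its part was not tested.

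**Figure D5:**
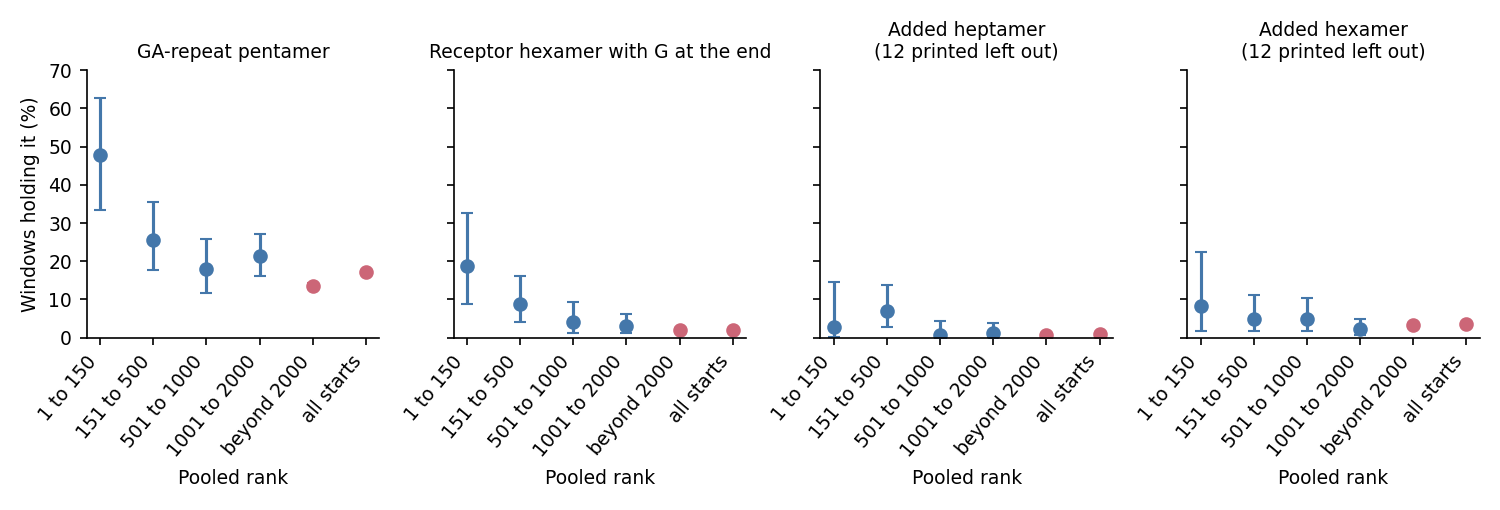
Share of windows of 101 bp (y axis, percent) that hold a GA-repeat pentamer, the receptor hexamer AGTGCG, and the added heptamer and hexamer, by pooled rank class of autosomal near-start regions and for the windows at all starts (x axis); points are shares and bars exact 95% intervals, blue for members, red for the lower ranks and the start windows. The first 2 are highest at ranks 1 to 150, with 47.9% and 18.8%; for the 2 added words the 12 printed sequences they were picked from are left out of that class, which leaves 2.78% and 8.33%.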

How the data were processed

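ChIP-seq of 2 biological replicates was deposited as region lists. Per the deposited notes, the authors called regions from each replicate, and from both pooled, against a control alignment in ce11. Caller, aligner, versions and the IDR threshold are not given in the sources used here, and read depth is unknown. The authors deposited 1 signal value per region, of unstated scale, and it was used only to rank regions and for log2 ratios between replicates. All members are 344 bp wide.

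Starts, genes and sequence came from WBcel235 (Ensembl release 115; RefSeq symbols, which all 560 genes matched). Analysis used Python 3.11.15 with numpy 2.4.6 and scipy 1.17.1. The scripts were tested on simulated data. No test was run. Alternatives were other numbers of regions, distances, gaps and windows, IDR peaks only, and each replicate's own list.

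Members, gene lists and words were chosen with earlier results of these data known, and the words GCGTGTT and AGTGTA after sequences were read. Lists follow gene symbols. From the sr- names, stems whose products are not receptors were left out, a departure from the planned list. Genes named were those at the 40 strongest members, the 4 strongest per list, the 10 strongest pairs and first genes, the 5 largest replicate ratios each way, the 5 strongest missing from a replicate, and the 3 at each limit, with further genes named after their values were seen. The ce10 lists were not used.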

Additional observations from a re-analysis of the deposited data

How the results depend on the processing

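No paired analysis was possible because there is 1 group of 2 replicates. With the 1000 highest regions there were 272 members, 77.6% upstream, 24.3% divergent and 26.1% in both replicates. With the 4000 highest there were 952, with 64.9% upstream, 7.46% in both and GAGAG in 19.1%. Starts within 250 bp left 296 members, 25% divergent and 7 cytosolic ribosomal protein genes, a share under those of the translation factors and the respiratory chain, and starts within 1000 bp gave 65.6% upstream and 11.2% divergent. With IDR peaks only there were 48 members, 95.8% upstream, 45.8% divergent, 29.2% at first genes, 89.6% in both, an SD of the log2 ratio of 0.53, 7 ribosomal genes and GAGAG in 47.9%. Members chosen from 1 replicate's own list were 63.2% to 64.5% upstream, with an SD of 0.50 to 0.64. A shared summit within 50 bp gave 10.6% in both, pairs within 500 bp 9.56% and within 2000 bp 23.5% divergent, and run gaps up to 200 bp 13.3% first genes. Counting the nearest gene only left 11 ribosomal genes. The share over all genes is not given under these alternatives, so their ribosomal counts have no base beside them. GAGAG was in 37.6% within 100 bp of the summit and 46.2% within 150 bp. Of the main results under alternatives, 44 moved less than their error or 1.5 times and 32 moved more, and of the single lists and words 208 and 120. The causes were not tested. The upstream shares printed here are all above the 52.3% of the lower-ranked regions. That 52.3% belongs to the main setting, so it is not a like comparison for other distances, rank limits or lists. Unknown depth limits all signal values.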

Other observations

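Some members lay within 500 bp of starts of noncoding genes as well as of coding ones. Noncoding starts were not counted over other regions, so the counts of members near them cannot be called high or low. Small nucleolar RNA genes were near 11 members, among them C06A1.9 at cdc-48.1, F07A11.15 at din-1 and F54E7.10 at ska-3, tRNA genes near 3, microRNA precursors near 2 (mir-1824 at Y87G2A.1 and mir-5549 at rfc-4), and small nuclear RNA genes near 2. The last 2 were sls-2.8 at Y75B8A.23 and sls-2.6 at hgo-1, which encode the spliced leader that is joined to downstream genes of operons. The coding genes with starts within 500 bp of 2 different members numbered 10. They included nhr-49, with summits of ranks 253 and 452 at different annotated starts and replicate signals of 14.1 and 13.6 and of 12.7 and 14.3, and mrck-1, whose summits of ranks 79 and 668 lay 225 and 425 bp upstream of the same gene.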
